A study of Homo sapiens with 4 samples.

Results

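Epithelial keratins were examined in RNA-seq of human colorectal cells, as the 9 genes KRT7, KRT8, KRT10, KRT17, KRT18, KRT19, KRT20, KRT23 and KRT80. They were taken by symbol from the deposited gene table, and all 9 were present in it, among 18650 loci with at least 1 fragment in a library. HT-29, an established human colorectal cancer line, and NCM460, a line described as normal human colon epithelium, were each cultured without treatment or with 100 μg/mL sturgeon chondroitin sulfate (SCS), a sulfated polysaccharide of fish cartilage, for 24 h. Each of the 4 conditions has 1 library, so no difference has a replicate check and no p-value is given. All intervals at 95% are exact and cover counting error only. The study compared the lines to learn how SCS acts on cancer and on normal colon cells, and the keratins are compared here with SCS in each line and between the lines.

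Keratins are the intermediate filament proteins of epithelial cells. A type II keratin pairs with a type I keratin, and the pairs assemble into filaments that carry mechanical load and are anchored at desmosomes and hemidesmosomes. Simple, single-layered epithelia such as the lining of the colon use KRT8 (type II) with KRT18 and KRT19 (type I), and KRT20 (type I) marks differentiated cells at the intestinal surface. KRT7 is the type II keratin of ductal epithelia, KRT10 of type I belongs to suprabasal epidermis, KRT17 of type I is induced in stressed or wounded epithelium, KRT23 is a further type I keratin and KRT80 a further type II keratin.

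The promoters of KRT20 and KRT10 are shown because these type I genes lie in the same cluster on chromosome 17 and differed in where they were detected, KRT10 in all 4 libraries and KRT20 in HT-29 alone. The 250 bases before the RefSeq gene start (GRCh38.p14, minus strand, 5′ to 3′) carry in capitals the matches on either strand to TATAAA, the core promoter box, and to TTTATG, letters found in sites of CDX homeobox factors.
KRT20, chr17:40885243-40885492: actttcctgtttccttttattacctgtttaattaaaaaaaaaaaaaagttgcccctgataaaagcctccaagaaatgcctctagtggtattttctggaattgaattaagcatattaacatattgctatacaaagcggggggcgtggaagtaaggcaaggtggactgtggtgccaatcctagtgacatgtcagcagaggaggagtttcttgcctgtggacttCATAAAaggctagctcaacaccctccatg
KRT10, chr17:40822615-40822864: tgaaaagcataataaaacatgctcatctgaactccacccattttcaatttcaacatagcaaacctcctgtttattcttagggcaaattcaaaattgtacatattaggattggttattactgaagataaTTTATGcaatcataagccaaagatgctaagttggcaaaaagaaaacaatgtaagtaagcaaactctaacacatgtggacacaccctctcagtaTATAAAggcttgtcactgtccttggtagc
The KRT20 window holds 1 TTTATG match, read on the opposite strand and starting 29 bases before the gene start, and no TATAAA. The KRT10 window holds 1 TATAAA match 29 bases and 1 TTTATG match 122 bases before the start. On the strand shown, the KRT20 match reads CATAAA and starts at the same distance as the TATAAA of KRT10. Near matches to the motifs were not searched. Of 35116 promoter windows of the same length, 10.7% hold TATAAA and 9.64% hold TTTATG. Neither KRT window holds GGGCGG, the GC box found in 42.6% of windows, or TGANTCA, the AP-1 motif found in 6.57%. The start of a GENCODE 29 transcript lies 15 bases downstream of the RefSeq start for KRT20 and 19 bases for KRT10. The RefSeq promoter table had an entry for 3 of the 9 keratins.

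On GRCh38, KRT80 (ENSG00000167767, chr12:52168996-52192000), KRT7 (ENSG00000135480, chr12:52232520-52252186), KRT8 (ENSG00000170421, chr12:52897187-52949954) and KRT18 (ENSG00000111057, chr12:52948871-52952901) lie in the type II cluster of chromosome 12, where KRT18 is the type I exception. KRT10 (ENSG00000186395, chr17:40818117-40822595), KRT20 (chr17:40875941-40885227), KRT23 (chr17:40922696-40937634), KRT19 (ENSG00000171345, chr17:41523617-41528308) and KRT17 (ENSG00000128422, chr17:41619437-41624842) lie in the type I cluster of chromosome 17. KRT20 and KRT23 are each listed in 2 rows, and only 1 row of each held fragments. That row carries the identifier of an alternate chromosome 17 contig (ENSG00000263057 and ENSG00000263309). KRT8 and KRT18 are neighbours on opposite strands and share 525 exon bases, and since strand use in counting is not given in the sources used here, fragments of that stretch cannot be told apart.

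The libraries held 1156568 to 1654764 fragments assigned to genes. Mitochondrial transcripts took 35.8% of them in HT-29 without SCS and 13.8% with it, 62.3% in NCM460 without SCS and 46.3% with it, which left 507692 to 1383424 fragments of nuclear genes. The part of this shift in the differences below was not tested. Epithelial markers EPCAM and CDH1 were detected in all 4 libraries. VIL1, CDH17, LGALS4, GPA33 and KRT20, markers of the differentiated colon, were at 0 in both NCM460 libraries, whereas CDX2 had 14 and 12 fragments there and none in HT-29. GPA33 was also at 0 in both HT-29 libraries. The markers moved unequally with SCS in HT-29, where LGALS4 had 138 and 464 fragments, VIL1 138 and 24 and CDH17 1 and 0. Summed over the 8 colon markers, of which KRT20 is 1, the level was 565 and 801 CPM (fragments relative to library size, scaled by TMM) in HT-29 and 187 and 219 CPM in NCM460, without and with SCS. The 9 mesenchymal markers summed to 5.87 and 8.74 CPM in HT-29 and to 118 and 130 CPM in NCM460. SPARC alone made up 83.5 and 94.3 CPM of the NCM460 sums and was at 0 in HT-29. CDH2, COL1A2, COL3A1 and TWIST1 were at 0 in every library. Of the 6 squamous and basal markers, KRT5, KRT14, KRT6A, KRT6B and TP63 were at 0 in all 4 libraries, and SFN alone was detected. Among the leukocyte markers PTPRC and CD3E were at 0 throughout, and LYZ, which epithelial cells can also express, had 603 and 352 fragments in HT-29 and none in NCM460.

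Keratin transcripts were abundant in both lines and made up almost entirely of KRT8, KRT18 and KRT19. These 3 genes held 97.7% of the keratin FPKM (fragments per kilobase of transcript scaled to library size, summed over the 9 genes) in HT-29 without SCS, 93.1% with SCS, and 99.4% and 99.3% in NCM460. The lines differed in which keratin led. In HT-29 KRT8 was highest at 1589 FPKM, followed by KRT18 at 1108 FPKM and KRT19 at 270 FPKM. In NCM460 KRT19 led at 1554 FPKM, before KRT8 at 1222 FPKM and KRT18 at 518 FPKM. On the FPKM scale both orders stayed as they were with SCS, at 652, 496 and 93.3 FPKM in HT-29 for KRT8, KRT18 and KRT19, and at 784, 550 and 203 FPKM in NCM460 for KRT19, KRT8 and KRT18. The counting intervals of these 3 levels did not overlap within any library. By fragments per kilobase of the longest transcript, KRT8 led KRT18 in untreated HT-29 at 2454 against 2133, and KRT18 led with SCS at 1282 against 1229, so the order of this pair with SCS depended on the length scale. Among nuclear protein-coding loci ordered by FPKM, KRT8 stood at place 5 and KRT18 at place 12 of 11211 in untreated HT-29, and KRT19 at place 24 of 10716 in untreated NCM460.

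**Figure D1:**
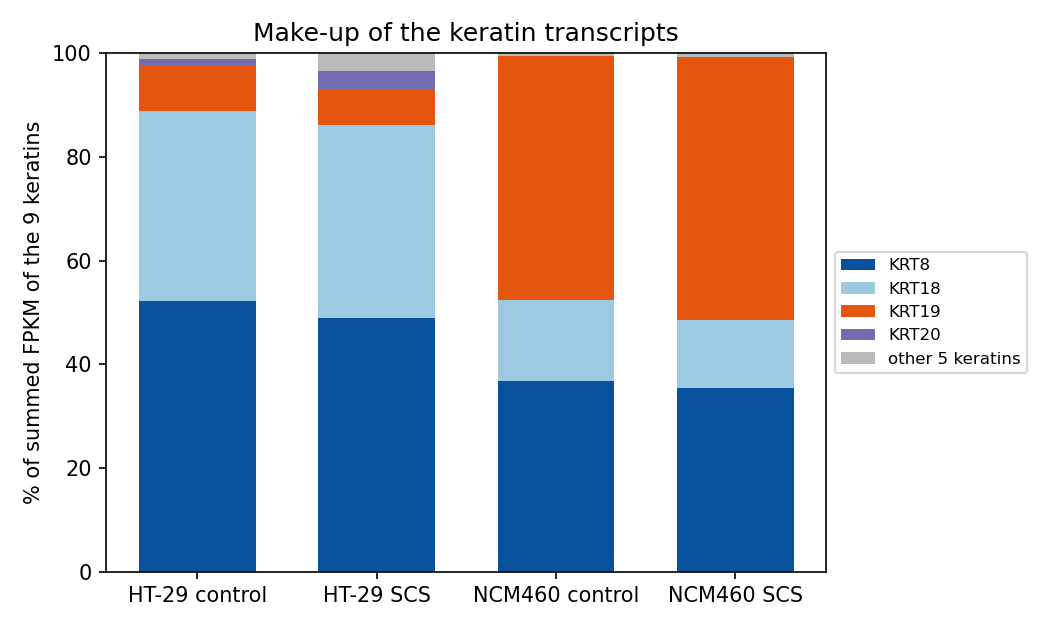
Share of the summed FPKM of the 9 keratins held by KRT8, KRT18, KRT19, KRT20 and the other 5 genes together (y axis, %), 1 bar for each library. KRT8 and KRT18 fill most of the HT-29 bars, and KRT19 holds 46.9% of the bar in untreated NCM460 and 50.6% with SCS.

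Below these 3 genes the levels fell steeply. In untreated HT-29 the order went on with KRT20 at 37.8 FPKM, KRT80 at 18.3, KRT10 at 6.04, KRT7 at 4.59, KRT23 at 2.47 and KRT17 at 1.87 FPKM, where the intervals of KRT10 and KRT7, of KRT7 and KRT23, and of KRT23 and KRT17 overlapped. With SCS, KRT17 at 10.7 FPKM came after KRT20 at 46.8 and KRT80 at 15.4 FPKM, and its interval overlapped those of both KRT80 and KRT7. In untreated NCM460 the next after KRT18 were KRT7 at 9.37 FPKM (2 fragments), KRT10 at 7.93, KRT80 at 1.93 and KRT23 at 1.38 FPKM, and KRT17 and KRT20 were listed at 0. With SCS, KRT10 was at 8.35 FPKM, KRT23 at 2.79 and KRT80 at 0.221 FPKM, and KRT7, KRT17 and KRT20 were listed at 0. The lower end of the order in NCM460 therefore rests on few fragments.

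**Figure D2:**
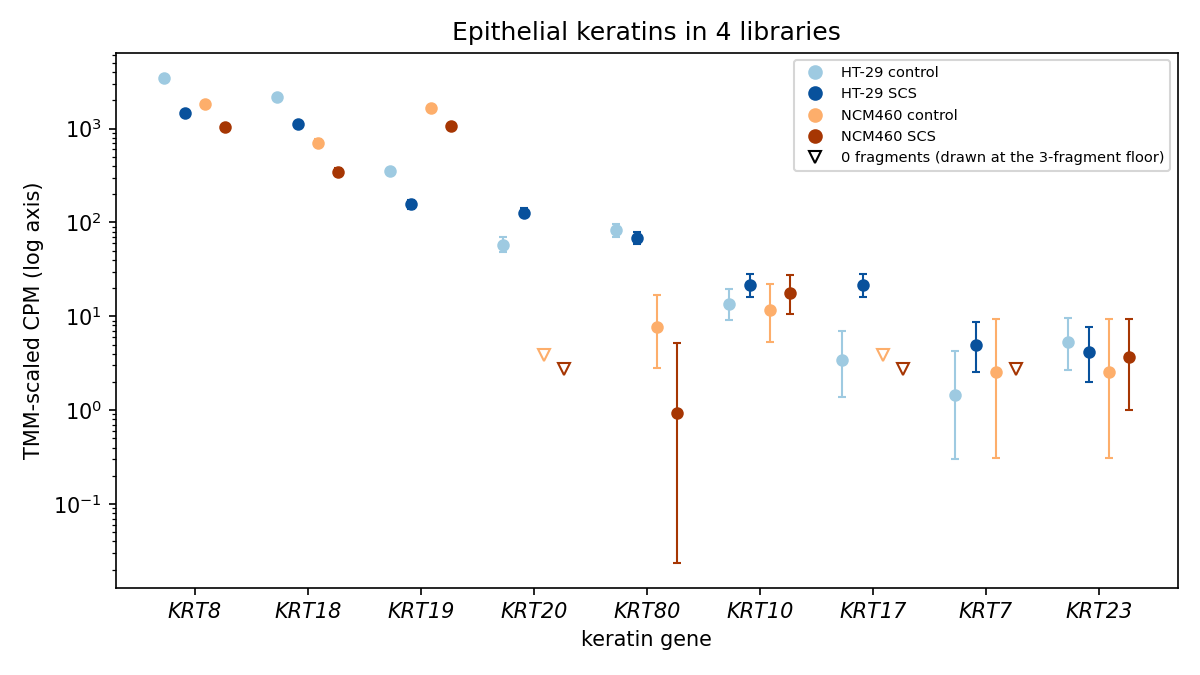
TMM-scaled CPM of the 9 keratins (log axis) in the 4 libraries, with exact 95% Poisson intervals, and open triangles at the 3-fragment floor where a library had 0 fragments. KRT8, KRT18 and KRT19 stand above the others in every library, and KRT20 and KRT17 have triangles in both NCM460 libraries.

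Ratios between keratins of 1 library do not depend on the scaling between libraries. The KRT8 to KRT18 fragment ratio was 1.58 (interval 1.52 to 1.64) in untreated HT-29 and 1.31 (1.25 to 1.38) with SCS, so that the intervals did not overlap. In NCM460 the ratio was 2.57 (2.32 to 2.84) without SCS and 3.0 (2.67 to 3.39) with it, and these intervals overlapped. KRT19 had 0.162 (0.149 to 0.175) fragments for each KRT18 fragment in untreated HT-29 and 0.140 (0.125 to 0.156) with SCS, against 2.34 (2.12 to 2.60) and 3.09 (2.75 to 3.48) in NCM460. On the FPKM scale type II exceeded type I keratin by a ratio of 1.13 in untreated HT-29 and 1.03 with SCS, and stood below it at 0.592 and 0.551 in NCM460. With fragments per kilobase of the longest transcript in place of FPKM, the HT-29 ratios were 0.912 and 0.716, below 1, and the NCM460 ratios 0.414 and 0.384. A type II excess in HT-29 was thus seen on the FPKM scale alone, while the lower ratio in NCM460 was seen on both.

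With SCS, HT-29 cells had fewer transcripts of the main simple-epithelial keratins and more of KRT20 and KRT17. KRT8, KRT18 and KRT19 were each about 2-fold lower, and together the 9 keratins went from 1.18% to 0.518% of nuclear fragments. A gene was called when it differed by more than 1.5-fold and the interval excluded no change, among loci whose mean over the compared libraries reached 1 CPM. By this rule 2 of the 9 keratins were higher, beside 16.8% of all 12168 loci tested, and 3 were lower, beside 14.8% of all loci. The other 4 were not called, and the median log2 ratio of the 9 was -0.25, beside 0.07 over all loci. In bulk RNA, fewer cells of a kind and less RNA per cell cannot be told apart.

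Among the type II keratins of HT-29, KRT8 had 7024 fragments without SCS and 3518 with it, or 3433 and 1464 CPM. The log2 ratio of CPM, SCS over control, was -1.23 (interval -1.29 to -1.17), the tightest interval of the 9. KRT80 had 168 and 165 fragments and a log2 ratio of -0.25 (-0.58 to 0.06), not called. KRT7 had 3 and 12 fragments, a CPM ratio of 3.41 whose interval runs from 0.919 to 18.8 and so includes no change. KRT8 was therefore the only type II keratin called with SCS in this line.

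Among the type I keratins of HT-29, KRT18, the filament partner of KRT8, had 4453 and 2676 fragments, or 2176 and 1114 CPM, a log2 ratio of -0.97 (-1.04 to -0.90). KRT19 had 720 and 375 fragments, or 352 and 156 CPM, a log2 ratio of -1.17 (-1.36 to -0.99). The 3 main keratins thus moved in the same direction, and KRT8 by more than KRT18 by the change of their fragment ratio. On the FPKM scale the KRT8 to KRT18 ratio was 1.43 without SCS and 1.31 with it, a smaller change. Fragments of the exon bases that KRT8 and KRT18 share cannot be told apart.

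KRT20 went the other way, with 119 fragments without SCS and 306 with it, or 58.2 and 127 CPM, a log2 ratio of 1.11 (0.82 to 1.45). On the deposited FPKM scale its levels were 37.8 and 46.8, a log2 ratio of 0.31, which was not called. Its share of keratin FPKM was 1.24% without SCS and 3.51% with it. KRT17 had 7 and 52 fragments, or 3.42 and 21.6 CPM, a log2 ratio of 2.29 (1.52 to 4.04). In a random draw of fragments thinned to the nuclear depth of the shallowest library, KRT17 was at 0.74 and not called. The draw was not repeated, so the part of depth in that lost call was not tested. KRT10 had 28 and 52 fragments, a log2 ratio of 0.62 (-0.03 to 1.38), and KRT23 had 11 and 10 fragments, a log2 ratio of -0.29 (-1.76 to 1.01). Neither was called.

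**Figure D3:**
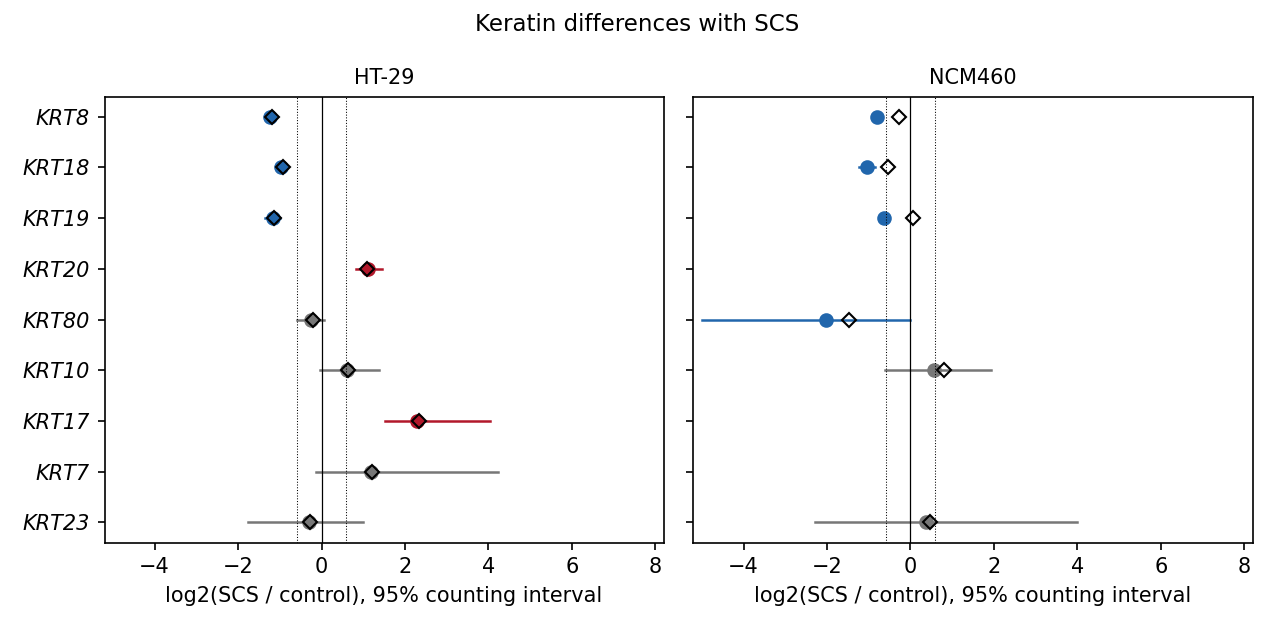
Log2 ratio with SCS (x axis) of each keratin in HT-29 (left) and NCM460 (right), points with exact 95% counting intervals, cut at -5 on the left. Red points were called higher, blue points lower and grey points not called. Dotted lines mark 1.5-fold, and open diamonds give the value after the GC trend of all loci was subtracted. Genes with no more than 3 fragments in both libraries are left out. The diamonds of the HT-29 panel lie on the points, and those of KRT8, KRT18 and KRT19 in NCM460 lie inside the dotted lines.

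In NCM460 the same 3 keratins were lower with SCS, in the direction of a trend with base composition across the loci of this line. KRT19 lay close to that trend, and KRT8 and KRT18 lay below it. KRT8 had 1406 and 1117 fragments, or 1805 and 1033 CPM, a log2 ratio of -0.80 (-0.92 to -0.69). KRT18 had 548 and 372 fragments, or 704 and 344 CPM, a log2 ratio of -1.03 (-1.23 to -0.84). KRT19 had 1285 and 1150 fragments, or 1650 and 1063 CPM, a log2 ratio of -0.63 (-0.75 to -0.52). Whether SCS acted differently on these genes in the 2 lines was not tested. The share of keratins among nuclear fragments was 0.642% without SCS and 0.428% with it.

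The remaining keratins of NCM460 were scarce. KRT80 had 6 and 1 fragments, a CPM ratio of 8.33 with an interval from 1.01 to 383, and was called lower at the edge of the rule. KRT10 had 9 and 19 fragments, a log2 ratio of 0.55 (-0.61 to 1.93), and KRT23 had 2 and 4 fragments, a CPM ratio of 1.44 (0.206 to 15.9), neither called. KRT7 had 2 and 0 fragments, and KRT17 and KRT20 had none in either library, where the floor of 3 fragments is 3.85 CPM without SCS and 2.77 CPM with it, and the exact upper limits are 4.74 and 3.41 CPM. Of the 7 keratins tested, 0 were called higher, beside 15.4% of all 12657 loci, and 4 lower, beside 13.8%. The median log2 ratio of the 7 was -0.80, beside 0.03 over all loci.

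In NCM460 the log2 ratio of a locus fell with the GC content of its longest transcript (Spearman's rho -0.62 over 12600 loci, a description across loci of the same libraries), whereas in HT-29 rho was -0.12 over 12106 loci. GC contents are 56.2% for KRT8, 55.7% for KRT18, 61.8% for KRT19 and 56.8% for KRT80, above the median of 49.1% of the loci tested in NCM460. With the GC trend subtracted, KRT8 was at -0.28 (-0.39 to -0.17), KRT18 at -0.53 (-0.72 to -0.34), KRT19 at 0.06 (-0.06 to 0.17) and KRT80 at -1.48 (-8.03 to 0.54). By that scale 0 of 7 keratins were higher, beside 5.77% of loci, and 0 were lower, beside 6.44%. KRT8 and KRT18 kept intervals below no change but were within 1.5-fold. In HT-29 the same subtraction left the 2 higher and 3 lower calls in number, with KRT8 at -1.18, KRT18 at -0.92, KRT19 at -1.13, KRT20 at 1.09 and KRT17 at 2.34.

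**Figure D4:**
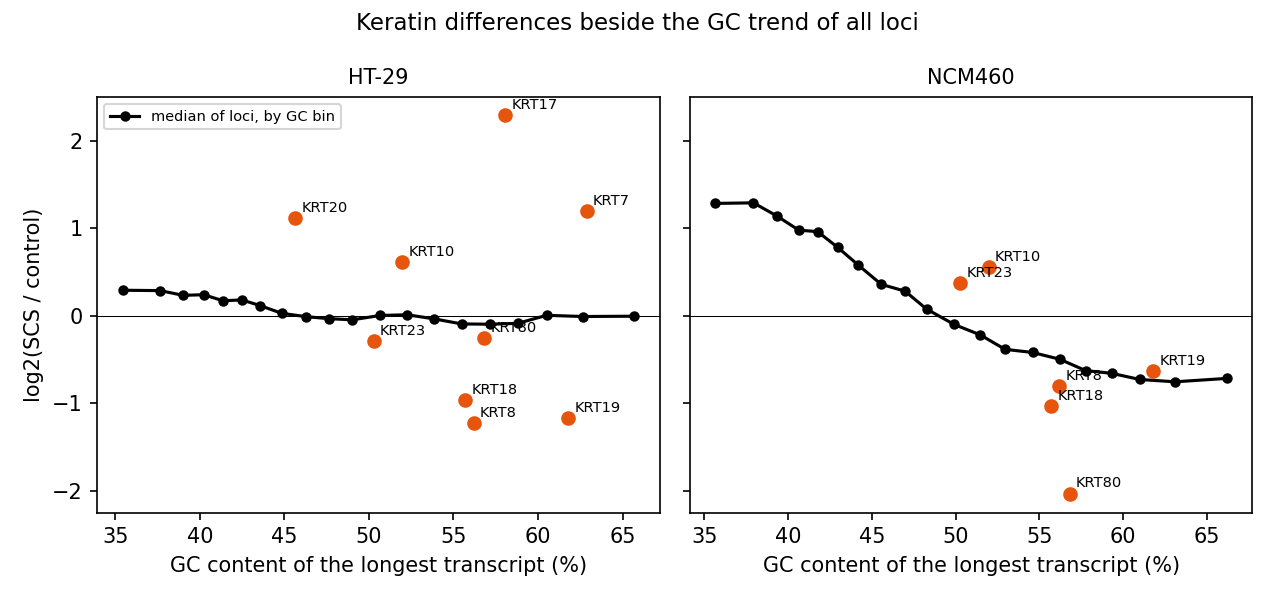
Log2 ratio with SCS (y axis) against the GC content of the longest transcript (x axis, %) in HT-29 (left) and NCM460 (right). Black points joined by a line are medians of all loci in bins of GC content, and orange points are the keratins with more than 3 fragments in a library. The black line is nearly level in HT-29 and descends in NCM460, where KRT19 at -0.63 lies close to it.

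Between the untreated lines, HT-29 had more KRT8, KRT18, KRT20 and KRT80, and NCM460 had more KRT19. KRT18 was higher in HT-29 by a log2 ratio of 1.63 (1.5 to 1.76), KRT8 by 0.93 (0.84 to 1.01) and KRT80 by 3.22 (2.26 to 4.88). KRT20 with 119 fragments against 0 was at least 15.1-fold higher when 3 fragments are set as the floor of the empty library, and its exact interval starts at a log2 ratio of 3.60. KRT19 was lower in HT-29 by a log2 ratio of -2.23 (-2.36 to -2.10). The 4 keratins called higher in HT-29 stand beside 25.3% of all 12691 loci, and the 1 called lower beside 23.1%. Between the untreated lines log2 ratios also fell with GC content (Spearman's rho -0.50 across loci). With that trend subtracted, KRT19 was at -1.33, KRT8 at 1.46 and KRT18 at 2.13, all still called, and by total fragments KRT19 was at -1.13. KRT8 was called in 8 of 9 alternatives, up to 2.02 by total fragments, and not on the FPKM scale at 0.38. KRT10, KRT7, KRT17 and KRT23 had 28, 3, 7 and 11 fragments in HT-29 and 9, 2, 0 and 2 in NCM460, and none was called.

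With SCS, KRT18, KRT19, KRT20 and KRT80 were called again in the same direction, KRT17 and KRT7 were called as well, and KRT8 was not. KRT18 was higher in HT-29 by 1.69 (1.54 to 1.86) on the log2 scale, and KRT19 was lower at -2.76 (-2.94 to -2.60). Against the same floor, KRT20 was at least 45.9-fold higher, with 306 fragments against 0 and an interval from 5.21 on the log2 scale. KRT17 was at least 7.80-fold higher, with 52 against 0 and an interval from 2.61. KRT80, with 165 fragments against 1, had a CPM ratio of 74.3 (13.1 to 2951). KRT7 had 12 fragments against 0, at least 1.80-fold higher by that floor, where the exact log2 interval begins at 0.32, a call that was lost on thinned fragments. KRT8 differed by 0.50 (0.41 to 0.60), within 1.5-fold. KRT10 at 0.28, with 52 and 19 fragments, and KRT23, with 10 and 4, were not called. The 5 keratins called higher stand beside 24.2% of all 13050 loci and the 1 called lower beside 22.4%. With the GC trend subtracted, KRT8 was called as well at 0.59, making 6 higher. The methods give a larger share of serum in the medium of NCM460, so line and serum cannot be told apart.

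**Figure D5:**
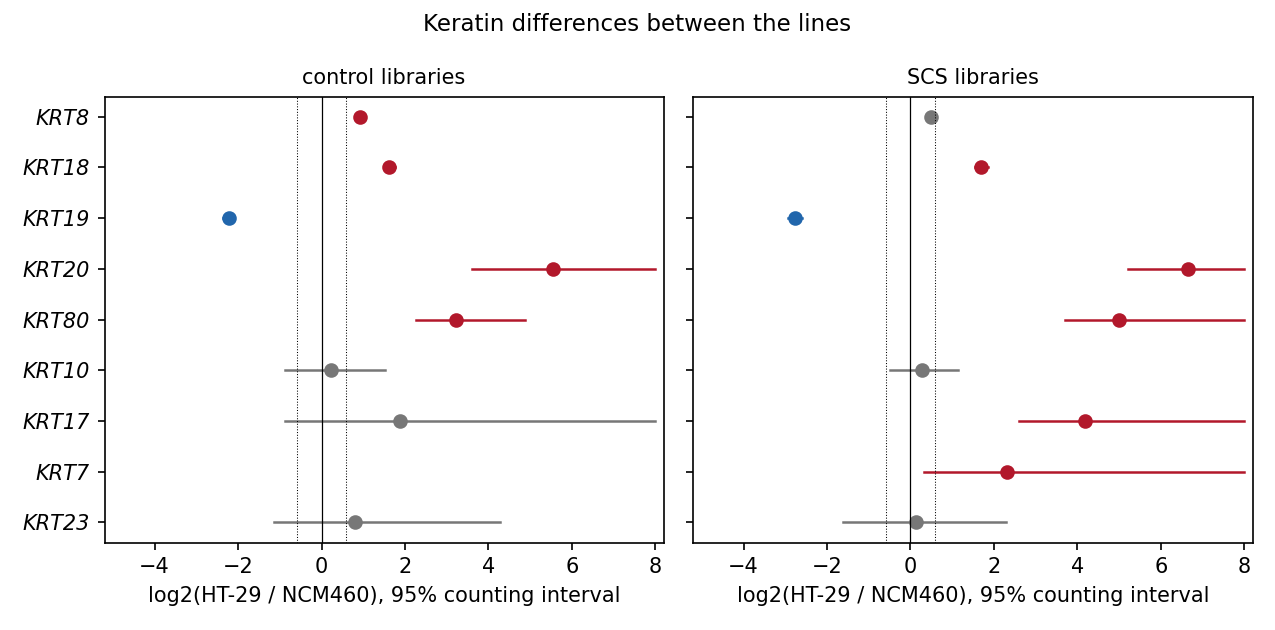
Log2 fold of HT-29 over NCM460 (x axis) for each keratin in the control libraries (left) and in the SCS libraries (right), points with exact 95% counting intervals, cut at 8 on the right where NCM460 had 0 or 1 fragments. Genes with no more than 3 fragments in both libraries are left out. Red points were called higher in HT-29, blue points lower and grey points not called, and dotted lines mark 1.5-fold. KRT19 lies left of the line in both panels, at -2.23 and -2.76, and KRT18 lies right of it in both.

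The table names 55 keratin genes, these 9 included, of which 17 had a fragment in some library. Of the 8 not among the 9, only KRT13 and KRT222 passed 10 fragments in a library. KRT13, a keratin of stratified mucosa, had 20 fragments in untreated HT-29 and 0 with SCS, at least 7.83-fold lower by the 3-fragment floor, where the exact log2 interval ends at -2.54, and 3 and 2 in NCM460. KRT222, a keratin-like gene of chromosome 17, had 69 and 50 fragments in HT-29, a log2 ratio of -0.66 (-1.25 to -0.15). In NCM460 it had 28 and 81 fragments, a log2 ratio of 1.03 (0.42 to 1.73), which was -0.33 and not called with the GC trend subtracted.

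Processed pseudogenes of KRT8 and KRT18 can share reads with their parents. The 50 KRT8 pseudogenes in the table summed to 54, 102, 7 and 29 fragments in untreated HT-29, HT-29 with SCS, untreated NCM460 and NCM460 with SCS. That is at most 2.90% of the KRT8 count. The 67 KRT18 pseudogenes summed to 13, 34, 13 and 14 fragments, at most 3.76% of the KRT18 count. The pseudogene rows with most fragments, KRT8P50 with 32, 75, 3 and 20 and KRT18P5 with 9, 16, 12 and 9, share their values with overlapping genes (TTBK2, and KLHL22 and SCARF2), so their reads cannot be told apart.

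Of 15 genes for other intermediate filaments, 7 were tested in HT-29, with 1 called higher, beside 16.8% of all loci, and 4 lower, beside 14.8%, and a median log2 ratio of -1.09, beside 0.07 over all loci. LMNB1, the nuclear lamina protein lamin B1, had 258 and 33 fragments in HT-29, a log2 ratio of -3.09 (-3.77 to -2.67), and IFFO1 at -0.42 was the highest above 5 CPM. In NCM460 9 were tested, 0 were higher, beside 15.4% of all loci, and 3 lower, beside 13.8%, none of them with the GC trend subtracted, and LMNB1 had 36 and 51 fragments there. VIM, the mesenchymal filament protein vimentin, had 1 and 0 fragments in HT-29 and 7 and 4 in NCM460. The 4 genes called lower in HT-29 were the lamin genes LMNA, LMNB1 and LMNB2, and IFFO2. The 1 called higher was PRPH, with 0 and 7 fragments. DES, GFAP, NES and NEFH had at most 4 fragments in either HT-29 library. The HT-29 median of this list thus rests mainly on lamin and IFFO genes.

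Of the desmosome and hemidesmosome genes that anchor keratin filaments, 16 were tested in HT-29, with 3 higher, 4 lower and 9 not called, and a median of -0.30. The same shares of all loci, 16.8% and 14.8% in HT-29 and 15.4% and 13.8% in NCM460, stand beside the counts of this list and of the next ones. DSC2, the desmosomal cadherin desmocollin 2, had 29 and 100 fragments and a log2 ratio of 1.47 (0.95 to 2.20). EVPL, the cornified envelope plakin envoplakin, had 93 and 48 fragments and a log2 ratio of -1.137 (-1.72 to -0.67). These anchors moved in both directions. In NCM460 5 were higher and 6 lower of 16, and 1 and 3 with the GC trend subtracted. DSG2, desmoglein 2, had 17 and 99 fragments there, at 2.01 (1.32 to 2.90) and 1.13 with the trend subtracted, and ITGB4, the hemidesmosomal integrin β4, had 350 and 167 fragments, at -1.53 (-1.82 to -1.27) and -0.82.

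Of 6 genes whose proteins bind or turn over keratins, 2 were higher and 1 lower in HT-29. KLHL24, a ubiquitin ligase adaptor that targets keratin 14, had 52 and 239 fragments and a log2 ratio of 1.92 (1.53 to 2.43), and TCHP, the keratin-binding protein trichoplein, had 31 and 9 fragments and -1.71 (-3.27 to -0.91). In NCM460 2 were higher and 2 lower, and 0 and 0 with the GC trend subtracted, where KLHL24 with 8 and 28 fragments went from 1.23 to -0.05. FAM83H, which organises keratin filaments, had 76 and 49 fragments in NCM460, at -1.09 and -0.35 with the trend subtracted.

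Of 15 epithelial transcription factors, 11 were tested in HT-29, with 0 higher and 3 lower. OVOL1, with 13 and 29 fragments at 0.81 (-0.06 to 1.99), was the highest above 5 CPM and not called. In NCM460 2 were higher and 1 lower of 10, and 1 and 0 with the GC trend subtracted. OVOL2, a repressor that maintains epithelial identity, had 20 and 74 fragments, at 1.37 (0.69 to 2.21) and 1.96 with the trend subtracted. ELF3, an epithelial ETS factor, had 95 and 63 fragments, at -1.05 (-1.55 to -0.59) and -0.53.

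Likeness of pattern was measured as the Euclidean distance between log2 CPM profiles over the 4 libraries, each centred on its mean, among 5290 loci whose mean reached 20 CPM. Nearest to KRT8 were HSPG2 at 0.297 and SIPA1L3 at 0.301, and nearest to KRT18 were IRAK1 at 0.124 and DIDO1 at 0.205. KRT8 and KRT18 stood at 0.976 from each other, whereas KRT19 stood at 3.21 from KRT8 and at 4.17 from KRT18. Nearest to KRT19 were ARRB2 at 0.145 and HS6ST1 at 0.200. KRT20 was nearest to GCNT3 at 0.293 and LGALS4 at 0.487. KRT17 was nearest to LPIN2 at 0.504 and SEMA3B at 0.587, and KRT80 to C1orf116 at 0.686 and ATP2C2 at 0.872. KRT10 was nearest to CDC42EP3 at 0.0468 and UBAP1 at 0.0596, KRT23 to KPNB1 at 0.0456 and SLC39A9 at 0.0643, and KRT7 to SMOX at 0.168 and CLCN7 at 0.275. The distances are over 4 points and carry no error. A pseudocount of 1 CPM was used, which sets the profile where KRT7, KRT17 and KRT20 had 0 fragments. KRT7, KRT10, KRT17 and KRT23 had at most 52 fragments in a library, so their small distances are not a sign of closer likeness.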

How the data were processed

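RNA-seq of 4 libraries was analysed, 1 for each cell line and treatment. Per the labels, libraries were made from total RNA with the NEBNext Ultra kit. The submitters' processing notes name bcl2fastq 2.17.1.14, cutadapt 1.9.1, Bowtie2, HTSeq 0.6.1 and hg19, and the paper names Cuffdiff. The coordinates in the table are those of GRCh38, and whether counting used strand is not given in the sources used here.

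The authors deposited, in 1 table of 64962 rows, a count column, which is a signal because the fragment counts had been put on a common scale by library, and an FPKM column. Undoing that scale returned whole fragments (within 0.1) for 99.9% to 100% of values above 0. The design had assumed whole counts, and the fragments so recovered were used. With no second library of any condition, a count test has no spread to estimate, so none was fitted. Rows with no gene name were left out (26 rows, at most 0.0352% of the counts summed over all rows before merging). Adjacent rows of identical values were then merged to 18650 loci. KRT18 is merged with AC107016.1, which lies inside it.

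Fragments were scaled by TMM over all 4 libraries (edgeR 4.0.16 in R 4.3.3, factors 0.578 to 1.50), and CPM ratios were taken on the log2 scale after adding a prior count of 2. Loci were compared where both libraries averaged 1 CPM or more. A call needed a 1.5-fold difference and an exact 95% Clopper-Pearson interval without 0. Levels have exact Poisson intervals. Against 0 fragments, a fold is a bound from a floor of 3 fragments in the empty library. PCR copies are not independent molecules, so intervals and floors cover counting error only. Transcript length and GC content came from GENCODE 29, and the GC trend was a lowess fit of span 0.3 (statsmodels 0.14.6). The calculation was tested on simulated libraries with 200 changed loci for each line. These libraries carried counting error only, so they cannot check the spread between libraries of a condition.

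The 9 genes and all lists were chosen with earlier results of these data known. Named beside the 9 were other keratins over 10 fragments in a library, the 2 pseudogenes with most fragments, VIM, for each list the highest and lowest log2 fold change in each line averaging 5 CPM or more, and for each keratin the 2 loci nearest in pattern averaging 20 CPM or more. Some items that these rules name are not reported here. KRT5, KRT14, KRT6A, KRT6B and the remaining marker genes come from lists of cell type markers. The motifs and the printed promoters were chosen after the values were seen. Alternatives were DESeq2 1.42.0 size factors, scaling by all or by nuclear fragments, the authors' scaling, FPKM ratios (pseudocount 0.1), a prior count of 0.5, subtraction of a GC or an expression trend, thinning to 507692 nuclear fragments, a 2-fold rule, a mean of 5 CPM and no filter.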

Additional observations from a re-analysis of the deposited data

Results flagged for a closer look

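KRT23 had opposite signs with SCS in the 2 lines, a log2 fold change of -0.29 in HT-29 (11 and 10 fragments) and of 0.37 in NCM460 (2 and 4 fragments). With 1 library per condition the difference was not tested, and both intervals include no change.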

How the results depend on the processing

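Of 288 alternative values, 254 kept their direction and their side of the rule, 17 lost a call, 9 gained one, and 8 changed sign, of which 6 had not been called and 2 had. KRT8, KRT18 and KRT19 stayed called lower with SCS in HT-29 under all 9 alternatives of scaling, trend, depth and prior count, over -1.40 to -0.95, -1.16 to -0.69 and -1.53 to -0.89. The count of keratins called higher in HT-29 was 4 by total fragments, 1 by FPKM and 1 when thinned, in place of 2. Thinning was a random draw that was not repeated, so thinned values also carry the error of that draw. In NCM460 the 4 lower calls became 0 by total fragments, 0 with the GC trend subtracted, and 2 each by nuclear fragments, with the expression trend subtracted, when thinned and at 2-fold, and 1 keratin, KRT10, was higher by total fragments. KRT19 in NCM460 changed sign, to 0.0606 by total fragments and to 0.0589 with the GC trend subtracted. Total fragments moved the median of all loci by 0.24 in HT-29, 0.62 in NCM460, 1.02 between untreated lines and 0.58 between treated lines, and the FPKM ratio by -0.19, -0.37, -0.52 and -0.38. KRT18 higher and KRT19 lower in HT-29 than in NCM460 held under all 9 alternatives with and without SCS. No paired analysis was possible because each condition has 1 library. Fewer than 20 fragments per library limit KRT7 and KRT23 in both lines and KRT10, KRT17, KRT20 and KRT80 in NCM460. The same holds for KRT17 in untreated HT-29, and so for its call with SCS. The causes of these shifts were not tested.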
